A study of Mus musculus with 6 samples.

Results

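The genes of the skeletal muscle sarcomere are described here in RNA from the proximal region of the mouse incisor. They were taken as the genes whose name in the table of 19270 genes is on a list of 40 genes of the contractile apparatus, its calcium handling and its regulators. A row was found for 29 of the 40, and the other 11 (*Actc1*, *Myh3*, *Myh7*, *Myl2*, *Myl3*, *Tnni1*, *Mybpc1*, *Pvalb*, *Myog*, *Myod1* and *Myf6*) were not analysed here. The samples were 3 libraries from incisors of control mice and 3 from incisors of *Gli1-CreER;Arid1bfl/fl* (mutant) mice. All mice were given tamoxifen at 1 month of age, and tissue was collected 4 days after induction. The methods do not give the number of mice behind each of these libraries. The sample labels give the controls as wild type, whereas the methods give them as tamoxifen-treated *Arid1bfl/fl* mice. The Cre is expressed under *Gli1*, a gene of the hedgehog pathway that marks mesenchymal stem cells of the incisor, and not under a muscle promoter. The targeted gene *Arid1b*, a subunit of the BAF chromatin remodeling complex, had an authors' mean of 97.6 normalized reads in controls and 38.03 in mutants.

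The sarcomere is the contractile unit of striated muscle, in which thick filaments of myosin pull on thin filaments of actin. Troponin and tropomyosin on the thin filament make this pull depend on calcium, which is released from the sarcoplasmic reticulum through the ryanodine receptor. Fast and slow fibers use different genes for the same part, and embryonic and regenerating muscle uses further developmental forms. The incisor is not a muscle, although jaw muscles and their tendons attach to the bone around it.

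Each value below is the authors' mean of normalized reads over the 3 libraries of a group. The value of each gene in single libraries was not analysed here. The means therefore carry no SD, no test across mice was run, and a mean does not show whether 1 library supplied most of it. A gene was counted as higher or lower when the means differed by over 1.5-fold, the fold threshold of the study's methods. From the lowest values, the libraries were estimated to hold 37123643 to 49594469 reads on these genes, and a mean of 3 reads in each library corresponds to 0.103 in controls and 0.0923 in mutants. A group at or under that floor gives only a bound on the fold change. In whole tissue, fewer muscle cells and less muscle RNA per cell cannot be told apart.

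Sequences upstream of the muscle genes are shown for the defining markers *Acta1* and *Ckm*, whose means were lower in mutants, and for *Myh4*, which had the largest difference in the opposite direction. Myogenic factors such as MyoD and myogenin bind E-boxes, MEF2 and SRF bind A/T-rich elements, and the TATA box positions the polymerase. Capitals mark CAGCTG (an E-box, read on both strands), the MEF2 consensus and the SRF CArG box (both strands), and TATAAA on the strand of the gene. The windows span 250 bases before to 50 after the start site and are taken from RefSeq on GRCm38.p6. They lie at chr8:123894726-123895025 on the minus strand, chr7:19410844-19411143 on the plus strand and chr11:67237562-67237861 on the plus strand.
Acta1: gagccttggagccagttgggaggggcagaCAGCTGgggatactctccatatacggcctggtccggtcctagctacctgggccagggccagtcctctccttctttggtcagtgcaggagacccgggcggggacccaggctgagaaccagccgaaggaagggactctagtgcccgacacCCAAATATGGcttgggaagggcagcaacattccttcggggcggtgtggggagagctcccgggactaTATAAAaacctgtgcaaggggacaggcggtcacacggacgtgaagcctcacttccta
Ckm: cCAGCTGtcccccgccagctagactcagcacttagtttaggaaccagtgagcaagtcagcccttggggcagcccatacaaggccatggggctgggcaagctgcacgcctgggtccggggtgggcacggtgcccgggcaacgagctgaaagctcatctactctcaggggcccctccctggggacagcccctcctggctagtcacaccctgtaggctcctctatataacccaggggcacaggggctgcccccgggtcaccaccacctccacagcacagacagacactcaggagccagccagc
Myh4: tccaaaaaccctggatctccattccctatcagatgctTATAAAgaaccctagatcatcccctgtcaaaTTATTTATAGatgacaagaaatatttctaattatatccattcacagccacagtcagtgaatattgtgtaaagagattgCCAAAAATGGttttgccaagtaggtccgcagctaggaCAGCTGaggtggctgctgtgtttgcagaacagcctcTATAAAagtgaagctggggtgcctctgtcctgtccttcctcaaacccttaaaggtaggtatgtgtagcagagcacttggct

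The *Acta1* window held CAGCTG beginning 221 bases, a CArG box beginning 73 bases and TATAAA beginning 7 bases before the start site. The *Myh4* window held all 4 of the motifs searched, with the MEF2 consensus beginning 182 bases, the CArG box 104 bases and CAGCTG 67 bases before the start site. In the *Ckm* window 1 match was found, CAGCTG at 249 bases before the start. Only the exact letters TATAAA were searched, so a window without a match may still hold another form of TATA box. The promoter table held 27 windows for 23 of the 29 genes. CAGCTG was present in 13 of these 27 windows (48.1%) and in 16.3% of all 32851 windows of the same length. Overlapping windows of *Mb* hold the same match, and the 13 windows belong to 12 genes. The MEF2 consensus was present in 4 windows (14.8%) against 3.19%, and TATAAA in 6 (22.2%) against 8.32%. The CArG box was present in 2 (7.41%) against 1.63%, and these are the *Acta1* and *Myh4* windows shown. All 32851 windows include those of genes with no value here. In the 16185 windows of genes with a value, the shares were 15.7% for CAGCTG and 1.84% for the MEF2 consensus. They were 4.82% for TATAAA and 1.35% for the CArG box. The counts are small, and no test was run. None of the motif matches overlapped another in the 3 sequences shown. These matches describe letters and not binding.

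Skeletal muscle transcripts were at trace level in both groups. To compare levels between genes, means were divided by the length of all exons of a gene. The median gene then had 3.25 normalized reads per kb in controls and 3.30 in mutants, and 28 of the 29 genes lay below it in both groups. The exception was *Tpm3*, a tropomyosin that many non-muscle cells also use, at 32.6 and 33.5 reads per kb. Without *Tpm3*, the genes spanned 0.00413 to 1.63 reads per kb in controls and 0.00414 to 1.22 in mutants. Not divided by length, they summed to 23.9 normalized reads in controls and 20.9 in mutants, which corresponds to an estimated 2687 and 2636 reads over the 3 libraries of each group.

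The genes differed widely in level per kb. In controls *Acta1*, the skeletal α-actin of the thin filament, came first after *Tpm3* at 1.63, followed by *Casq1* at 1.36 and *Mylpf* at 0.935. In mutants *Casq1* came first at 1.22, followed by *Mylpf* at 0.927 and *Acta1* at 0.730. Neighbours in these orders cannot be separated without a spread across mice. *Ttn*, the longest gene of the list, was last in both groups at 0.00413 and 0.00414. The defining markers *Acta1* and *Ckm* were low, with *Acta1* above 38.4% of all genes in controls and 28.2% in mutants on the per-kb scale. *Ckm*, the muscle creatine kinase, was at 0.179 and 0.118 reads per kb, above 12.2% of all genes in controls. The presence of muscle tissue was thus not shown by more than traces of its markers.

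**Figure D1:**
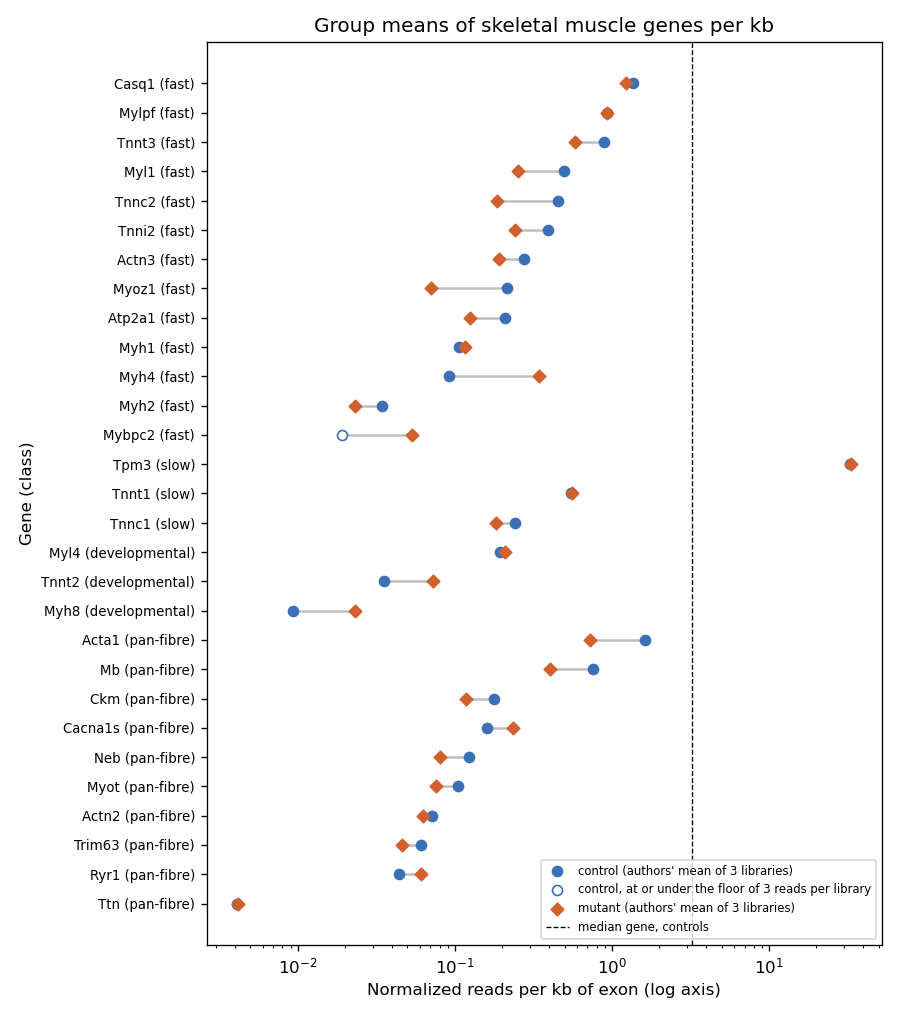
Mean normalized reads per kb of exon (log axis) of the 29 genes, ordered by class and by control level, with controls as circles, mutants as diamonds and the median gene of the controls as a dashed line. All genes but *Tpm3* lie left of the median gene, and the open circle marks *Mybpc2*, which is under the floor in controls; no error bars are drawn because the means carry no SD.

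Between the groups, more of these genes had a lower than a higher mean in mutants. All 29 had a fold change, with 18 lower and 11 higher, and the median log2 ratio of mutant over control was -0.40, against 0.00 over all genes. Over all genes with a fold change, 9539 of 19268 were lower and 9729 were higher. Past 1.5-fold, 10 of the 29 (34.5%) were lower and 4 (13.8%) were higher. Over all genes, 5.73% were lower and 7.17% were higher past the same fold. Genes with few reads scatter more, however. Among the 6061 genes whose mean over both groups, not divided by length, lay between 0.131 and 2.71, the range of the 28 low genes, 14.5% were lower and 15.2% were higher. The 4 higher genes are therefore a share close to this background, and the 10 lower genes are a share above it that was not tested. That range is wide, so its genes are not matched closely in level to any single gene of the list. At any size of difference, 3134 of the 6061 genes in that range were lower and 2927 were higher. Without the 5 genes that share at least 10% of their exon bases with another gene, 6 of 24 were lower and the median was -0.17. With a pseudocount of 1 on both means, 1 of 29 was lower and the median was -0.071. The mean log2 ratio of the 29 genes, in contrast to their median, was -0.19. Of the 28 genes, 23 had a log2 ratio inside the 5th to 95th percentile of the genes in that range, which ran from -1.01 to 1.06. Outside it were *Myoz1*, *Tnnc2* and *Acta1* on the lower side, and *Myh8* and *Myh4* on the higher side.

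**Figure D2:**
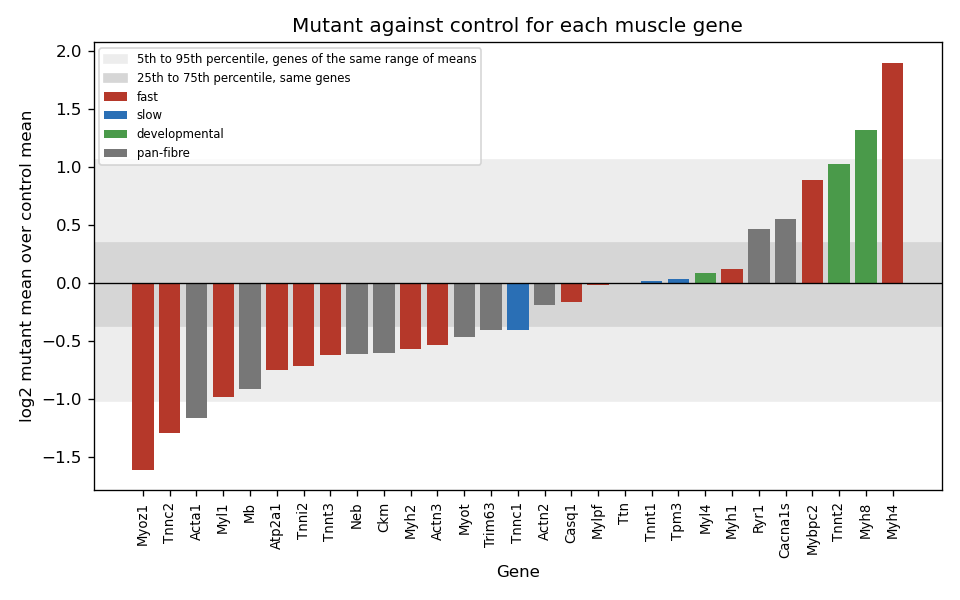
The log2 ratio of the mutant mean over the control mean for each of the 29 genes (bars, coloured by class), over grey bands that mark the central part of 6061 genes whose means lie in the range of the low genes. The bar of *Mybpc2* is a bound, and *Myoz1* (-1.60) and *Myh4* (1.90) mark the ends of the range.

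Among the genes that fast and slow fibers share, 7 of 10 had a lower mean in mutants, and the median log2 ratio was -0.43. Beside this, 3134 of the 6061 genes in the range of the low genes were lower, and the difference was not tested. *Acta1* (chromosome 8 of GRCm38, 123891769 to 123894751, minus strand) had a mean of 2.50 in controls and 1.12 in mutants, a 2.23-fold lower value in mutants. These means correspond to an estimated 287 and 143 reads over the 3 libraries of each group. This was the widest gap among the shared genes, and 3.37% of the 6061 genes in the range of the low genes had a lower ratio. *Mb*, the oxygen store myoglobin, had means of 1.13 and 0.600, 1.88-fold lower in mutants. *Neb*, the nebulin that spans the thin filament, had means of 3.27 and 2.14, and *Ckm* had 0.521 and 0.344. They were 1.53-fold and 1.52-fold lower in mutants. *Mb* and *Ckm* share 31.9% and 15.5% of their exon bases with other annotated genes, so part of their reads may belong elsewhere.

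The giant scaffold protein titin gave another picture. *Ttn*, which spans the sarcomere from its border to its middle, had means of 0.483 in controls and 0.484 in mutants, so its groups differed by 1.00-fold. *Actn2*, the α-actinin of the Z-disc that anchors the thin filaments, had means of 0.273 and 0.239, and *Myot*, another Z-disc protein, had 0.231 and 0.168. *Trim63*, a ubiquitin ligase of muscle atrophy, had 0.174 and 0.131. None of these genes of the Z-disc, scaffold and protein breakdown was past 1.5-fold, and they rested on an estimated 14 to 60 reads over 3 libraries.

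The genes of calcium release and uptake did not share a direction. *Ryr1*, the ryanodine receptor that releases calcium, had a mean of 0.960 in controls and 1.33 in mutants, a log2 ratio of 0.47. *Cacna1s*, the voltage sensor that opens it, had means of 1.05 and 1.54, a log2 ratio of 0.55. Both were higher in mutants without passing 1.5-fold, and *Cacna1s* shares 20.0% of its exon bases with another annotated gene. *Casq1*, which binds calcium inside the reticulum, had means of 2.66 and 2.39, a log2 ratio of -0.16. *Atp2a1*, the pump that returns calcium to the reticulum of fast fibers, had means of 0.727 and 0.433, and was 1.68-fold lower in mutants. It shares 21.9% of its exon bases with *Rabep2*, so part of its reads may belong elsewhere.

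Of the 13 genes of fast fibers that were found, 10 had a lower mean in mutants, 6 of them past 1.5-fold, and 2 were higher past it. These are 46.2% and 15.4%, beside 14.5% and 15.2% of the 6061 genes in the range of the low genes, so the higher genes were at the background share. At any size of difference, 3134 of the 6061 genes were lower, beside the 10 of 13 here. The median log2 ratio of the fast genes was -0.57. *Myoz1*, a calcineurin-binding protein of the Z-disc of fast fibers, had means of 0.407 in controls and 0.134 in mutants and was 3.04-fold lower, the largest difference on the lower side. The estimated reads behind it were 44 and 14 over 3 libraries, so few reads stand behind this value. Among the same 6061 genes, 0.858% had a lower ratio. *Tnnc2*, the fast troponin C that binds calcium, had means of 0.365 and 0.149, 2.45-fold lower in mutants. Its value is uncertain, because 74.0% of its exon bases are shared with *Ube2c*, a cell cycle gene on the opposite strand, and the sources do not state whether reads were counted by strand.

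The other subunits of the fast troponin complex and the fast light chain had lower means in mutants too. *Tnnt3*, the tropomyosin-binding subunit, had 1.41 in controls and 0.919 in mutants, and *Tnni2*, the inhibitory subunit, had 0.588 and 0.360. They were 1.54-fold and 1.64-fold lower. *Myl1*, the essential light chain of fast myosin, had means of 1.04 and 0.525, 1.97-fold lower in mutants. *Mylpf*, the regulatory light chain that sits on the same myosin, did not follow it, with 0.993 and 0.985. *Actn3*, the α-actinin of fast fibers, had 0.804 and 0.558, which did not pass 1.5-fold. The light chains of one motor therefore had ratios of -0.98 and -0.01 on the log2 scale.

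Of the fast myosin heavy chains, the motors themselves, 1 of 3 differed past 1.5-fold. *Myh4*, the motor of the fastest fibers, had a mean of 0.552 in controls and 2.06 in mutants and was 3.73-fold higher, the largest difference among the 29 genes. These are an estimated 61 and 265 reads over 3 libraries, and 99.1% of the 6061 genes in the range of the low genes had a lower ratio. *Myh1*, of the next fastest fibers, had means of 0.679 and 0.739, and *Myh2*, of fast oxidative fibers, had 0.246 and 0.166, a log2 ratio of -0.57. Neither passed 1.5-fold. *Mybpc2*, a myosin-binding protein of fast fibers, was at an estimated 5 reads in the 3 control libraries, under the floor, and had a mean of 0.192 in mutants, so it was at least 1.85-fold higher. The genes *Myh4*, *Myh1*, *Myh2* and *Myh8* lie in a cluster on chromosome 11, and 18.7% of the 50-base words of *Myh1* transcripts also occur in *Myh2*, so reads may be split between them. For *Myh4* the largest such share was 10.6%, with *Myh1*.

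Per kilobase of exon, the listed heavy chains summed to 0.242 normalized reads per kb in controls and 0.506 in mutants. *Myh1* was the largest part of this sum in controls, at 44.1%, followed by *Myh4* at 37.9% and *Myh2* at 14.2%. In mutants *Myh4* was the largest part, at 67.8%, followed by *Myh1* at 23.0%, with *Myh2* at 4.61% and *Myh8*, the perinatal heavy chain, at 4.59%. The order of the first and second heavy chain thus differed between the groups, and without replicate values the size of that difference was not tested. *Myh8* was 3.83% of the sum in controls. Its shares depended on the length used and were 6.79% and 8.29% with the longest transcript, against 5.10% for *Myh2* in mutants, so the order of these chains was not settled.

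**Figure D3:**
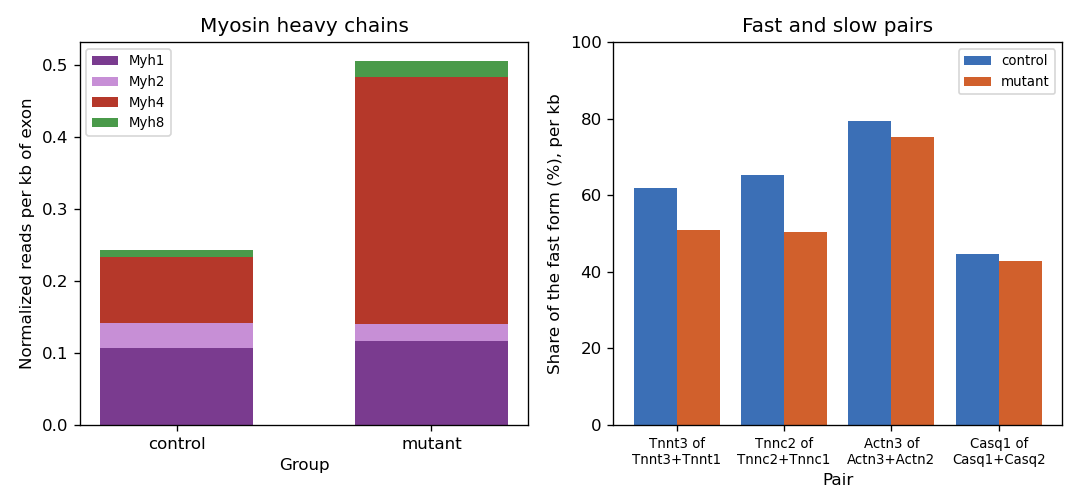
Left, normalized reads per kb of exon of the 4 heavy chains that were found, stacked for the control and the mutant mean; *Myh4* takes most of the mutant bar. Right, the share of the fast form in each of 4 fast and slow pairs on the per-kb scale, which was lower in mutants in all 4; no error is drawn because the means carry no SD.

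Slow fiber genes were found for 3 of 8, and none differed past 1.5-fold. *Tpm3*, the slow tropomyosin that is also made in non-muscle forms, had means of 198.6 in controls and 203.8 in mutants. Its transcripts share 23.2% of their 50-base words with the related gene *Tpm3-rs7*. *Tnnt1*, the slow troponin T, had means of 1.21 and 1.23, and *Tnnc1*, the troponin C of slow and cardiac muscle, had 0.250 and 0.190. The log2 ratios were 0.04 for *Tpm3*, 0.02 for *Tnnt1* and -0.40 for *Tnnc1*, and the median of 0.02 and the mean of -0.11 differed in sign.

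Set side by side per kilobase, the fast form was a smaller part of each pair in mutants. *Tnnt3* was 61.9% of the sum of *Tnnt3* and *Tnnt1* in controls and 51.0% in mutants. *Tnnc2* was 65.4% and 50.5% of its sum with *Tnnc1*, with the overlap with *Ube2c* noted above. *Actn3* was 79.4% and 75.3% of its sum with *Actn2*, which fast and slow fibers both use. *Casq1* was 44.6% and 43.0% of its sum with *Casq2*, the calsequestrin of slow and cardiac muscle. The size of these shares depended on the length used. With the longest transcript, *Tnnt3* was 53.4% in controls and 42.3% in mutants, and *Tnnc2* was 60.0% and 44.6%. Under each length tried, 0 of the 4 pairs had a higher fast share in mutants. By the length of all exons, the 4 shares were lower by 1.61 to 14.98 percentage points in mutants. These pairs share libraries, however, and no spread across mice is known. The other 4 pairs fixed for this comparison lacked a member in the data analysed here.

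The developmental forms that were found, 3 of 5, all had higher means in mutants, with a median log2 ratio of 1.03. Among the 6061 genes in the range of the low genes, 2927 were higher. *Myh8*, used by muscle around birth and in regeneration, had means of 0.109 in controls and 0.273 in mutants, 2.50-fold higher on an estimated 10 and 33 reads. *Tnnt2*, the troponin T of heart and embryonic skeletal muscle, had 0.276 and 0.563, 2.04-fold higher. *Myh8* was just above the floor in controls, and *Tnnt2* rested on an estimated 29 reads there. *Myl4*, the light chain of atria and embryonic muscle, had 0.905 and 0.963 and did not differ past 1.5-fold. With 3 genes, 2 of them at low read numbers, the class had a higher median than the fast genes by description only. *Myog*, *Myod1* and *Myf6*, the factors that drive muscle differentiation, were not analysed here.

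Other muscle genes outside the list were examined as a separate list of 66, of which 44 were found. Of these, 9 (20.5%) were lower and 6 (13.6%) were higher past 1.5-fold, and the median log2 ratio was -0.09. Over all genes the shares were 5.73% and 7.17%, and among the 6061 genes in the range of the low sarcomere genes 14.5% and 15.2%. This list reaches control means of 470.4, so the second background does not match it in level. The share of lower genes was above both backgrounds. The share of higher genes was above the first and below the second, and none of these differences was tested. Among the lower genes, *Mstn*, the growth inhibitor myostatin, had means of 3.45 in controls and 1.00 in mutants, the largest difference among them at 3.44-fold. *Pygm*, the muscle glycogen phosphorylase, had 3.83 and 1.66, and *Pgam2*, a glycolytic mutase of muscle, had 2.88 and 1.18. These enzymes of energy supply were 2.31-fold and 2.44-fold lower in mutants. *Eno3*, the muscle enolase, did not follow them, with means of 8.25 and 8.22. *Cav3*, *Sgca*, *Lmod3* and *Tcap*, which serve the sarcomere or the muscle membrane, were 1.66-fold to 2.28-fold lower, with control means of 0.296 to 0.916. *Csrp3* had an estimated level under the floor in mutants and was at least 1.99-fold lower.

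Among the higher genes of that list, *Pax3* and *Myf5*, factors of muscle precursors, had control means of 0.217 and 0.112 and mutant means of 0.508 and 0.251. *Stac3* and *Jsrp1*, which serve the coupling of excitation to calcium release, were 1.57-fold and 1.59-fold higher in mutants. Other calcium-handling genes of that list did not pass 1.5-fold. Their log2 ratios were -0.157 for *Jph1*, 0.150 for *Jph2*, -0.289 for *Hrc* and -0.065 for *Casq2*. *Myom2* and *Tmod4*, which hold the thick and thin filaments, were at least 2.19-fold and 2.02-fold higher against a control mean under the floor. The genes with the highest means over both groups, *Tpm1* (470.4 and 545.6), *Atp2a2* (228.8 and 283.0) and *Mef2a* (149.7 and 147.8), are used in many cell types and did not differ past 1.5-fold.

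Markers of other tissues differed in several directions beside the muscle genes. All 3 red blood cell markers had lower means in mutants, with *Hbb-bs*, a β-globin, at 29.04 in controls and 9.97 in mutants, and a median log2 ratio of -1.53. All 5 markers of dental epithelium were higher, with a median of 2.44, and their means summed to 1360 in controls and 9831 in mutants. Among 6 smooth muscle markers, *Tagln* and *Cnn1* were higher past 1.5-fold, the other 4 were not, and the means summed to 151.1 and 207.6. *Des*, the desmin filament that smooth and skeletal muscle share, was 0.425 and 0.416. The 5 tendon markers had a median of 0.14 and summed to 75.3 and 74.9, and *Kera* was lower past 1.5-fold. *Tnni3* and *Ryr2*, of heart muscle, had means of 1.16 and 1.07 in controls and did not differ past that fold. The 5 markers of incisor mesenchyme had a median of -0.15, and 1 of them, *Gli1*, was past 1.5-fold with means of 106.4 and 46.2, whereas *Col3a1* and *Prrx1* had log2 ratios of 0.31 and 0.08. The mutants carry the *Gli1-CreER* allele, which the methods do not give for the controls. *Gli1* therefore cannot be read here as a marker of tissue alone, and the part of the allele in its value was not tested. According to the methods, mesenchyme was dissected from the incisor for this RNA. The part of blood, epithelium, tendon or dissection in the values of the muscle genes was not tested.

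**Figure D4:**
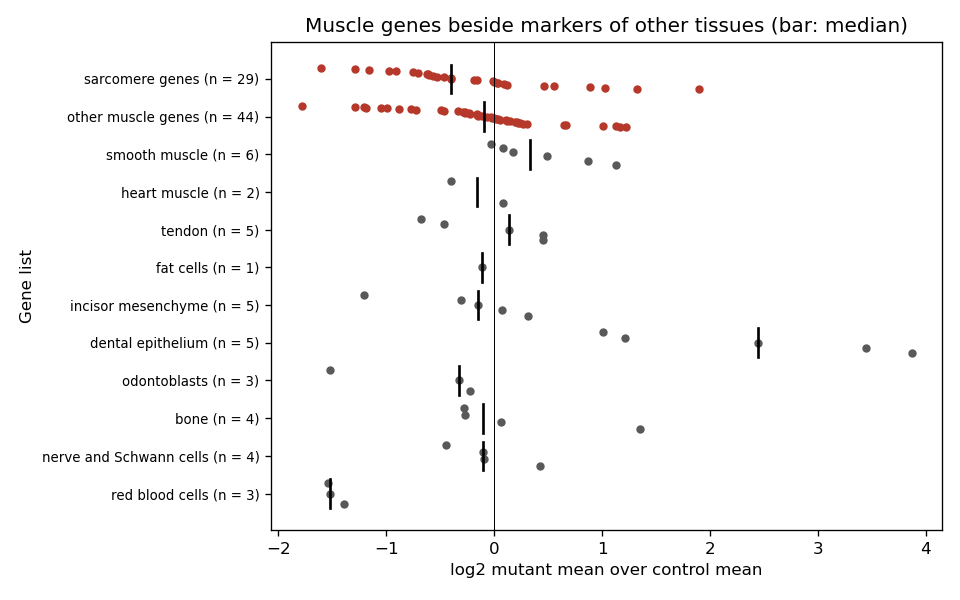
The log2 ratio of the mutant mean over the control mean for the 29 sarcomere genes, the 44 other muscle genes and the markers of 10 other tissues or cell types; each point is a gene and each vertical bar a list median. The sarcomere genes spread on both sides of 0 with a median of -0.40, red blood cell markers lie to the left and dental epithelium markers to the right.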

How the data were processed

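RNA-seq was performed on the proximal incisor, with 3 control and 3 mutant libraries. Reads were trimmed, aligned to mm10 and compared in Partek Flow, and the submitters' processing notes name TopHat2 2.0.8. The counting method, its use of strand and the annotation are not given in the sources used here. The deposited table holds a normalized signal, the authors' arithmetic mean of each group. It also holds their p-values, FDR, ratios and fold changes, and a filtered copy their changed genes, none of which was used. A second deposited table summarizes the signal of each library, whose upper quartiles lie between 44.57 and 44.58.

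Log2 ratios were computed from the means. The limma fit planned for values per library did not apply. Reads were estimated by taking the lowest value of a library as 0 reads plus 1, an inference from the values. Exon lengths and overlaps came from GENCODE vM21 on GRCm38 (mm10), in which 18840 of the 19270 names matched 1 gene, and shared 50-base words from its transcripts. The members and lists were chosen with earlier results of these data known. Every member was named, and of the other muscle genes those past 1.5-fold and the 3 with the highest means. Some further genes of that list are given beside them for comparison. Not every gene this rule covers is reported here. The computation of the ratio and read estimate was run on simulated libraries built on that same inference, so it does not test the inference. The simulated differences were larger than 1.5-fold and lay in genes with more reads than many members had. The alternatives tried were other folds, filters on low means, pseudocounts, centring, lengths and member sets. Python 3.11.15, numpy 2.4.6, pandas 2.3.3 and matplotlib 3.10.9 were used.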

Additional observations from a re-analysis of the deposited data

How the results depend on the processing

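No paired analysis was possible because the replicate numbers of the labels have no values per gene, and for the same reason no library could be left out. The precision is limited by depth, since the low genes rest on an estimated 5 to 377 reads over 3 libraries. The median log2 ratio of the 29 genes moved from -0.40 to -0.19 as a mean, to -0.071 with a pseudocount of 1, which shrinks the ratios of low genes, and to -0.17 without the 5 genes (*Tnnc2*, *Ckm*, *Atp2a1*, *Cacna1s* and *Mb*) that share at least 10% of their exon bases with other genes. With a mean of at least 10, only *Tpm3* was left, the median reversed to 0.037, and 0 genes were higher and 0 lower past 1.5-fold. The 10 lower genes became 3 at 2-fold, 1 with the pseudocount and 6 without the overlapping genes, and the 4 higher genes became 1 with the pseudocount. With means in place of medians, the fast class was at -0.33, the slow class at -0.11, the developmental class at 0.81 and the genes shared by all fibers at -0.33. With the pseudocount, the fast class was at -0.21, the developmental class at 0.20 and the shared genes at -0.065. Without *Tnnt2* and *Myl4*, and with no pseudocount, the developmental class was *Myh8* alone at 1.32. Removing the overlapping genes and subtracting the value of 0 reads were added after the data were seen. Centring on all genes, no floor, the subtraction and the removal of genes that other cell types express kept the median of the 29 genes within 0.1 and the counts within 1.5 times. Under the lengths tried and the subtraction, *Myh4* was higher in mutants by 28.8 to 30.4 percentage points of the heavy chains.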
